A study of Homo sapiens with 6 samples.

Results

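The AP-1 and early response transcription factors are 10 genes, FOS, FOSB, FOSL1, FOSL2, JUN, JUNB, JUND, EGR1, ATF3 and IER3, and were taken as every probe set of the array that the platform annotation pairs with 1 of these symbols and no other. These are 10 of the 11963 genes with a probe set of their own, and they hold 18 of the 19065 probe sets with a single symbol. The arrays were made from total RNA of HT1080, a human fibrosarcoma cell line. The 3 groups of 2 arrays were cells transfected with the pGUS vector expressing GFP and an siRNA targeting MT1-MMP, cells with the same vector expressing GFP and an siRNA targeting integrin alpha3, and mock cells whose pGUS vector expressed GFP only. All groups thus carried the vector and GFP, and mock cells carried no siRNA. The labels do not give the length of the transfection, the share of cells transfected, or whether replicate arrays stand for separate cultures. The p-values below set group differences against the spread between replicate arrays, which the fit estimates partly from other genes. That spread may be technical.

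AP-1 is a dimer of leucine zipper proteins that binds DNA. A JUN protein pairs with a FOS protein, with another JUN protein or with an ATF protein, and proteins of the FOS family need a JUN partner. Many of the genes are immediate early genes, switched on without new protein synthesis after growth factors, adhesion or stress activate MAP kinases. AP-1 sites lie in the promoters of matrix proteases such as the collagenases, and the factors are studied in invading tumour cells. EGR1 is a zinc finger factor of the same early response, and IER3 is an early response protein that modulates cell survival and is not itself a factor that binds DNA through a zipper.

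The signals are intensities on a linear scale that had been brought to a common level before deposit, and median signals of the arrays lay between 72.9 and 83.1. The targets had their lowest signals in the groups carrying their siRNA. MMP14, which encodes MT1-MMP, had 812 and 717 in MT1-MMP siRNA cells, 999 and 1804 in alpha3 siRNA cells, and 1971 and 3064 in mock cells, so it was below both mock arrays with either siRNA. ITGA3 had 1481 and 1634 in MT1-MMP siRNA cells, 148 and 347 in alpha3 siRNA cells, and 1139 and 1290 in mock cells. The 18 spiked control probe sets also moved with the group: relative to their mock mean, their median signal was 2.30 and 1.29 for MT1-MMP siRNA and 0.812 and 0.841 for alpha3 siRNA, against 0.927 and 1.07 for mock. Their part in the values below was not tested. All 8 mesenchymal markers passed the filter described below, which removed dim probe sets. Of the other markers on the array, 0 of 7 epithelial, 1 of 5 endothelial and 1 of 4 leukocyte markers passed.

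The windows upstream of 4 of the genes are shown because these are the genes whose probe sets gave the widest differences between groups or disagreed among themselves, and because they hold letters known as sites of this family, of its ATF partners or of serum response factor. The sequences are RefSeq's on GRCh38.p14 and cover the 250 bases before the annotated start, 5′ to 3′ on the gene's strand. The files name no genome build, and the array does not measure these windows. Capitals mark matches, on either strand, to the cyclic AMP response element TGACGTCA and its 6-base part TGACGT, to the AP-1 site TGACTCA, to the variant TGACATCA, and to the CArG box, which serum response factor binds. JUND lies on the minus strand (chr19:18281623-18281872), FOSL2 on the plus strand (chr2:28392608-28392857), EGR1 on the plus strand (chr5:138465229-138465478) and JUN on the minus strand (chr1:58784048-58784297).
JUND: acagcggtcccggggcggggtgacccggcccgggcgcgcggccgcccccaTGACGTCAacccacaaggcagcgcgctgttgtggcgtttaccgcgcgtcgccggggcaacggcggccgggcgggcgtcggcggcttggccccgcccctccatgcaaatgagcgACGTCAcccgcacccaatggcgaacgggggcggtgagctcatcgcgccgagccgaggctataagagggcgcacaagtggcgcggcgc
FOSL2: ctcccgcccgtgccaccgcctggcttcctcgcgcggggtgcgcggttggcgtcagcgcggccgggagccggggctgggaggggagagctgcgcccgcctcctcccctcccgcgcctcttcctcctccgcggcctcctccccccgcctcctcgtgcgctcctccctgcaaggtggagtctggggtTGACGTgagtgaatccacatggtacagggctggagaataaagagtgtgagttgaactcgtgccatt
EGR1: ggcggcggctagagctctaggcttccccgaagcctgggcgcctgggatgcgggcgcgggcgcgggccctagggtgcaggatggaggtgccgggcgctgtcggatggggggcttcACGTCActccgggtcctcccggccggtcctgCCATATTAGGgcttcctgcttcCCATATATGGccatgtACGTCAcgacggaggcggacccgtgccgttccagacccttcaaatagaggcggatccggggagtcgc
JUN: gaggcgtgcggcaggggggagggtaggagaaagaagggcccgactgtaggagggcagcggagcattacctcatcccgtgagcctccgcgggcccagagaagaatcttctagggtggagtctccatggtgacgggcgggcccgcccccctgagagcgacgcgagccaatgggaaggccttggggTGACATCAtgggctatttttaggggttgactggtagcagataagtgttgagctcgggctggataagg
Of the 10 genes 8 had a window in the table, FOSL1 and IER3 had none, and ATF3 had 2 starts, which makes 9 windows. The full element TGACGTCA was found in the JUND window alone among the 9, against 1.65% of the 35116 windows of all genes. TGACGT, which TGACGTCA contains, was found in 5 of the 9 (JUND, FOSL2, EGR1, FOS and FOSB), against 7.1%. TGACATCA was found in those of JUN and of 1 ATF3 start, against 2.37%, and the CArG box in that of EGR1, which holds 2 of them, against 1.16%. TGACTCA was found in 0 of the 9, against 4.2%. These matches describe letters and say nothing of binding. Sites farther upstream than these windows were not searched, so a window without a match does not mean that the gene lacks the site.

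A filter kept probe sets whose mean log2(signal + 32) over the 6 arrays was above the 40th percentile of the array (6.31, a signal of 47.5). It left 15 of the 18 probe sets and 8 of the 10 genes. The 3 that did not pass were the only probe sets of FOS and FOSB and 1 of the 3 of JUND. Where a gene had several, the brightest was tested, and limma fitted the 3 group means over all 8045 genes that passed. A gene was called where its Benjamini-Hochberg adjusted p was under 0.05. The signal of a probe set depends on its own probes, so levels were compared between arrays and not between genes.

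None of the 8 members that passed was called in any of the 3 comparisons. The siRNA targets were not called against mock either. MMP14 was not called with MT1-MMP siRNA, nor was ITGA3 with alpha3 siRNA, where the 2 called genes were higher. The lack of a call is thus no sign that a gene was unchanged. For MT1-MMP siRNA against mock, limma called 0 of 8045 genes (0%, with 1160 genes, 14.4%, at an unadjusted p under 0.05), and 3 of the 8 members (JUND, IER3 and ATF3) had an unadjusted p under 0.05, all of them higher with the siRNA. Of all genes, 6.76% were higher and 7.66% lower by that rule. For alpha3 siRNA against mock, 2 of 8045 genes were called (0.0249%), and ATF3, FOSL2 and JUND had an unadjusted p under 0.05, all higher with the siRNA. Of all genes, 5.73% passed that rule, 2.51% higher and 3.22% lower. The 2 comparisons share their mock arrays. Between MT1-MMP siRNA and alpha3 siRNA, 112 genes were called (1.39%), while of the members IER3 had an unadjusted p under 0.05 on the higher side and FOSL2 on the lower side, where 11.7% of all genes did on each side and 23.4% in all.

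**Figure D1:**
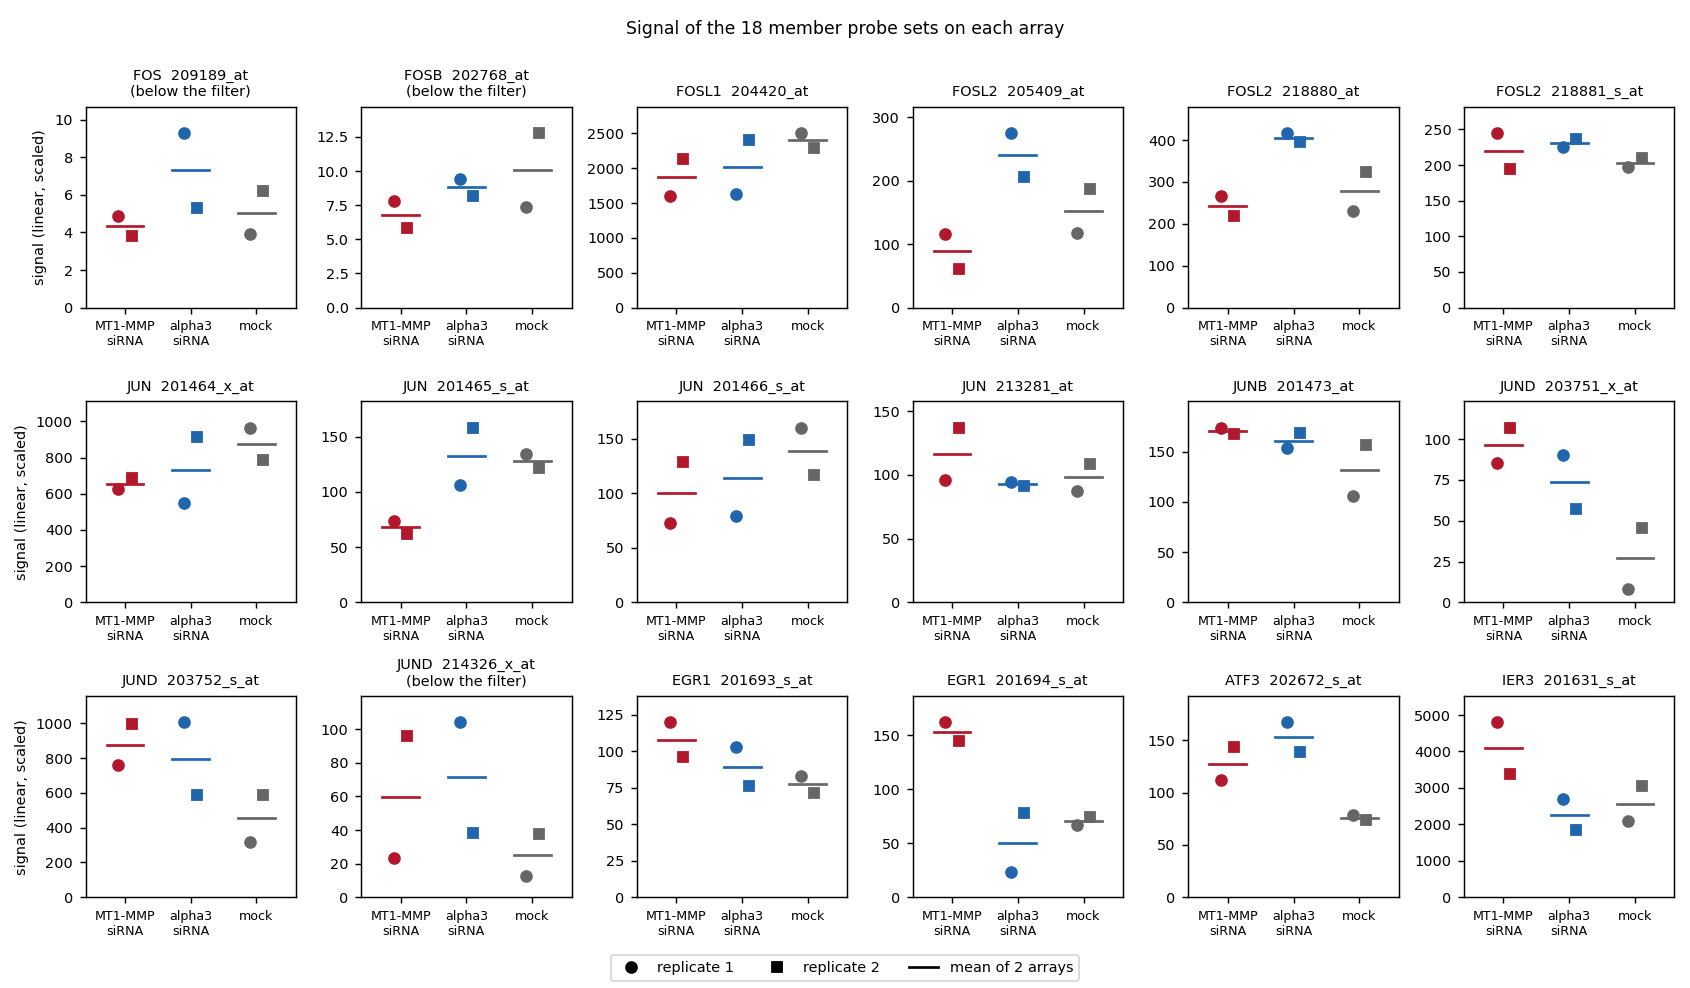
Signal on a linear axis that starts at 0 for each of the 18 member probe sets (panels), with circles for replicate 1, squares for replicate 2 and bars for the mean of 2 arrays in MT1-MMP siRNA, alpha3 siRNA and mock cells. ATF3 sits above both mock arrays on all 4 siRNA arrays, an order whose share over all genes was not counted. The 3 probe sets of FOSL2 and the 4 of JUN show different orders of the groups.

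Of the FOS family, FOS, the prototype of the immediate early genes, was near the bottom of the array's range in every group. Its signal was 4.9 and 3.8 in MT1-MMP siRNA cells, 9.3 and 5.3 in alpha3 siRNA cells, and 3.9 and 6.2 in mock cells. FOSB, a close relative of FOS, had 7.8 and 5.8 in MT1-MMP siRNA cells, 9.4 and 8.2 in alpha3 siRNA cells, and 7.4 and 12.8 in mock cells. Both were below the filter on all 6 arrays, each siRNA group overlapped the mock arrays, and no fold change is given for them. No detection calls were used here, so a low signal cannot be told from absence.

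FOSL1 encodes Fra-1, the FOS protein that builds up under lasting ERK signalling and is tied to invasive behaviour in tumour cells. Its single probe set had signals of 1607 and 2132 in MT1-MMP siRNA cells, 1634 and 2406 in alpha3 siRNA cells, and 2507 and 2295 in mock cells. Both MT1-MMP siRNA arrays lay below both mock arrays, while the alpha3 siRNA arrays lay on both sides of mock replicate 2. The log2 fold change was -0.37 with MT1-MMP siRNA (SE 0.23, limma adjusted p = 0.497) and -0.27 with alpha3 siRNA (SE 0.23, adjusted p = 0.915). Leaving out MT1-MMP siRNA replicate 1 put the first value at -0.17, and leaving out replicate 2 put it at -0.57. The second was 0.0041 with alpha3 siRNA replicate 1 left out and -0.55 with replicate 2 left out. The 95% intervals run from -0.90 to 0.16 and from -0.80 to 0.26.

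FOSL2 encodes Fra-2, the other FOS protein without a strong activation domain, and its 3 probe sets did not give 1 answer. The brightest, 218880_at, had 267 and 218 in MT1-MMP siRNA cells, 417 and 395 in alpha3 siRNA cells, and 230 and 324 in mock cells. On it both alpha3 siRNA arrays lay above all others, with a log2 fold change of 0.52 over mock (SE 0.22, adjusted p = 0.855), while MT1-MMP siRNA overlapped mock (-0.16, SE 0.22, adjusted p = 0.772). The value over mock with alpha3 siRNA was 0.30 without mock replicate 1, and that with MT1-MMP siRNA lay between -0.38 and 0.059 without 1 or the other mock array. The probe set 205409_at had 117 and 61.0 in MT1-MMP siRNA cells, 276 and 206 in alpha3 siRNA cells, and 118 and 187 in mock cells. The third, 218881_s_at, had 245 and 195 in MT1-MMP siRNA cells, 225 and 237 in alpha3 siRNA cells, and 198 and 209 in mock cells, and there all groups lay close together. MT1-MMP siRNA minus alpha3 siRNA was -0.68 on the brightest probe set (SE 0.22, adjusted p = 0.122). In a fit of all 11828 probe sets that passed, this difference was -1.20 on 205409_at (SE 0.30, adjusted p = 0.0777) and -0.07 on 218881_s_at (adjusted p = 0.873). All 3 probe sets were higher with alpha3 siRNA than in mock cells with no overlap of the arrays, as were 16.4% of all genes on their brightest probe set. They were read on the same arrays and are not separate replicates. On 218881_s_at the log2 fold change over mock was only 0.16 (SE 0.20).

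Of the JUN family, JUN is the partner that forms the classical dimer with FOS. Its brightest probe set, 201464_x_at, had 626 and 687 in MT1-MMP siRNA cells, 552 and 915 in alpha3 siRNA cells, and 965 and 788 in mock cells. Both MT1-MMP siRNA arrays lay below both mock arrays, while the alpha3 siRNA pair held the lowest of the 6 signals and one between the mock signals. The log2 fold change was -0.39 with MT1-MMP siRNA (SE 0.25, adjusted p = 0.512) and -0.28 with alpha3 siRNA (SE 0.25, adjusted p = 0.915), and without alpha3 siRNA replicate 1 the second was 0.067. The first was -0.25 without mock replicate 1. The probe set 201465_s_at had 73.6 and 62.1 in MT1-MMP siRNA cells, 106 and 158 in alpha3 siRNA cells, and 134 and 121 in mock cells. It gave the widest difference from mock among the JUN probe sets with MT1-MMP siRNA, at -0.68 on the log2 scale (SE 0.24, limma adjusted p = 0.269 over 11828 probe sets). On 201466_s_at the arrays of every pair of groups overlapped and MT1-MMP siRNA was at -0.39 over mock, while 213281_at was at 0.18, on the other side of 0.

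JUNB, a weaker activator that can hold back JUN, had 174 and 168 in MT1-MMP siRNA cells, 153 and 169 in alpha3 siRNA cells, and 106 and 157 in mock cells. Mock replicate 1 was the low array. JUNB was at 0.33 on the log2 scale with MT1-MMP siRNA over mock (SE 0.22, adjusted p = 0.525) and at 0.26 with alpha3 siRNA over mock (SE 0.22, limma adjusted p = 0.915). Without mock replicate 1 they were 0.10 and 0.029, and without mock replicate 2 they were 0.56 and 0.48.

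JUND, the JUN protein found in resting as well as in growing cells and often set against JUN in its effect on growth, had the widest difference from mock among the members. Its brightest probe set, 203752_s_at, had 759 and 998 in MT1-MMP siRNA cells, 1006 and 590 in alpha3 siRNA cells, and 320 and 589 in mock cells. All 4 siRNA arrays lay above both mock arrays, alpha3 siRNA replicate 2 by less than 1 unit of signal over mock replicate 2. The share of all genes with this order was not counted, and both siRNA groups are set against the same mock arrays. The mean was 878 ± 169 with MT1-MMP siRNA, 798 ± 294 with alpha3 siRNA and 454 ± 190 in mock cells (SD, n = 2 each). The log2 fold change was 0.95 with MT1-MMP siRNA (SE 0.33, 95% interval 0.18 to 1.72, adjusted p = 0.268) and 0.78 with alpha3 siRNA (SE 0.33, 95% interval 0.015 to 1.55, adjusted p = 0.855). Without mock replicate 1 they were 0.54 and 0.37, and without mock replicate 2 they were 1.36 and 1.19. The value with alpha3 siRNA also moved with its own arrays, to 0.41 when alpha3 siRNA replicate 1 was left out. The dimmer probe set 203751_x_at had 85.4 and 107 in MT1-MMP siRNA cells, 90.1 and 56.9 in alpha3 siRNA cells, and 8.3 and 45.7 in mock cells. All 4 siRNA arrays were again above both mock arrays. Both mock signals were under the filter signal of 47.5, so this probe set passed only through its siRNA arrays. It was read on the same arrays and adds no separate support. The third, 214326_x_at, did not pass the filter and had 23.3 and 96.2 in MT1-MMP siRNA cells, 104 and 38.5 in alpha3 siRNA cells, and 12.5 and 37.8 in mock cells.

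**Figure D2:**
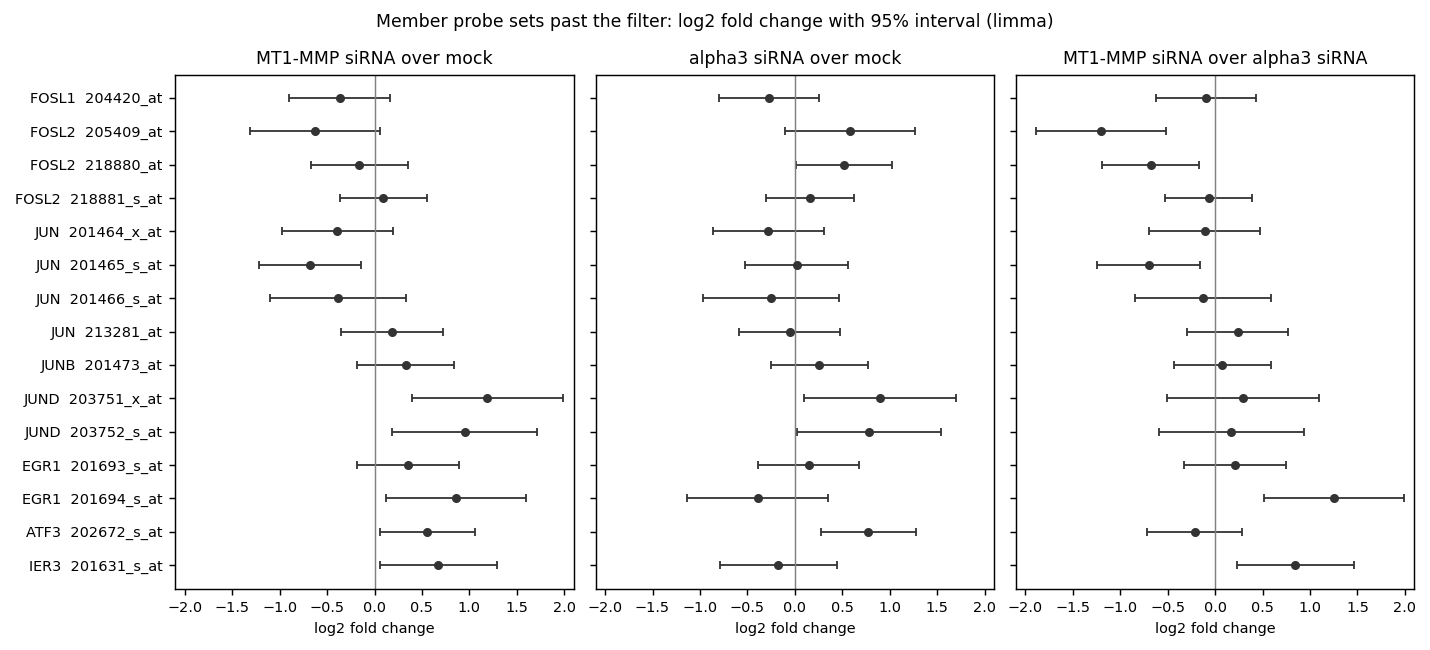
Log2 fold change (points) with its 95% interval (bars) from limma for the 15 member probe sets past the filter, for MT1-MMP siRNA over mock, alpha3 siRNA over mock, and MT1-MMP siRNA over alpha3 siRNA. The JUND probe sets lie right of 0 against mock with both siRNAs, and the probe sets of FOSL2, JUN and EGR1 spread over both sides of 0 in at least 1 panel each.

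Outside the zipper families, EGR1, a zinc finger factor induced by serum and by ERK signalling, was measured by 2 probe sets of nearly equal brightness. On 201693_s_at the signals were 120 and 95.9 in MT1-MMP siRNA cells, 103 and 76.1 in alpha3 siRNA cells, and 83.2 and 71.4 in mock cells. On 201694_s_at they were 162 and 145 in MT1-MMP siRNA cells, 23.4 and 77.6 in alpha3 siRNA cells, and 66.7 and 74.1 in mock cells. Both probe sets were higher with MT1-MMP siRNA than in mock cells on both arrays, by a log2 fold change of 0.35 on the first (SE 0.23, adjusted p = 0.520) and of 0.86 on the second (SE 0.32, adjusted p = 0.297 over 11828 probe sets). With alpha3 siRNA they differed in sign, at 0.14 and -0.39, and on the second the signal of 23.4 in alpha3 siRNA replicate 1 was the lowest of the 6. Between MT1-MMP siRNA and alpha3 siRNA the second probe set differed by 1.25 (SE 0.32, adjusted p = 0.0823) and the first by 0.21 (adjusted p = 0.632). On the first probe set this difference lay between 0.049 (without alpha3 siRNA replicate 2) and 0.37 (without alpha3 siRNA replicate 1) when 1 array was left out. MT1-MMP siRNA over mock was 0.23 there without MT1-MMP siRNA replicate 1 and 0.23 with an offset of 100, and 0.60 with the mean of both probe sets.

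ATF3, a zipper factor that many stress signals induce and that often acts as a repressor, had the closest replicates in mock cells among the members with 1 probe set. It had 112 and 143 in MT1-MMP siRNA cells, 167 and 139 in alpha3 siRNA cells, and 78.7 and 73.3 in mock cells. All 4 siRNA arrays lay above both mock arrays. The mean was 128 ± 22.0 with MT1-MMP siRNA, 153 ± 20.1 with alpha3 siRNA and 76.0 ± 3.82 in mock cells (SD, n = 2 each). The log2 fold change was 0.56 with MT1-MMP siRNA (SE 0.22, unadjusted p = 0.0320 in limma, adjusted p = 0.296) and 0.77 with alpha3 siRNA (SE 0.22, unadjusted p = 0.00692, adjusted p = 0.824). The siRNAs differed from each other by -0.21 (95% interval -0.71 to 0.28, adjusted p = 0.594). All 3 values kept their sign when any 1 array was left out, but the difference between the siRNAs lay between -0.073 (without MT1-MMP siRNA replicate 1) and -0.36 (without MT1-MMP siRNA replicate 2), with -0.10 and -0.33 on leaving out alpha3 siRNA replicate 1 or 2. With an offset of 100 in place of 32, MT1-MMP siRNA over mock was 0.37.

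IER3 had 4799 and 3375 in MT1-MMP siRNA cells, 2696 and 1833 in alpha3 siRNA cells, and 2085 and 3040 in mock cells. Both MT1-MMP siRNA arrays lay above the other 4, and the alpha3 siRNA and mock arrays overlapped. The log2 fold change was 0.67 with MT1-MMP siRNA over mock (SE 0.27, unadjusted p = 0.0371 in limma, adjusted p = 0.312), -0.18 with alpha3 siRNA over mock (adjusted p = 0.946), and 0.85 for MT1-MMP siRNA over alpha3 siRNA (SE 0.27, adjusted p = 0.117). Without mock replicate 1 the first was 0.40, and without MT1-MMP siRNA replicate 1 it was 0.42. The second turned to 0.092 without mock replicate 2 and to 0.098 without alpha3 siRNA replicate 2.

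Groups that do not overlap were common over all genes, so the counts among members were read against that share. With MT1-MMP siRNA 7 of the 8 members did not overlap with mock, 5 of them higher and 2 lower (FOSL1 and JUN), where 49.9% of all genes did not overlap, 24.6% higher and 25.3% lower. With alpha3 siRNA 3 of the 8 (ATF3, FOSL2 and JUND) did not overlap with mock, all higher, where 34.4% of all genes did not, 16.4% higher and 18% lower. Between MT1-MMP siRNA and alpha3 siRNA 2 of the 8 did not overlap, IER3 higher and FOSL2 lower, where 53.9% of all genes did not, 28% higher and 25.9% lower. The median log2 fold change of the 8 members was 0.34 with MT1-MMP siRNA, 0.20 with alpha3 siRNA and -0.012 between the siRNAs, beside medians over all 8045 genes of 0.0024, -0.014 and 0.022.

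The genes whose pattern over the 6 arrays was most like that of FOSL1 were DEK, ETNK1, an ethanolamine kinase, and SERPINB5, the serpin maspin. The measure was the root mean square difference of log2 values centred on each gene's mean, which was 0.045 for DEK, 0.053 for ETNK1 and 0.058 for SERPINB5, against a median of 0.35 over all genes. DEK, a chromatin protein, had 1371 and 1671 in MT1-MMP siRNA cells, 1339 and 1935 in alpha3 siRNA cells, and 1967 and 1922 in mock cells. Nearest to JUN were MAPKAPK3 (0.039), a kinase activated by p38, NFKB1 (0.063), an NF-kappaB subunit, and NCALD (0.064), against a median of 0.36. MAPKAPK3 had 624 and 735 in MT1-MMP siRNA cells, 570 and 945 in alpha3 siRNA cells, and 969 and 844 in mock cells. Nearest to EGR1 were NISCH (0.041), DDOST (0.043), a subunit of the enzyme that glycosylates new proteins, and COX7A2L (0.046), against a median of 0.31. With 8045 genes and 6 arrays, close matches of this kind are a description only.

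**Figure D3:**
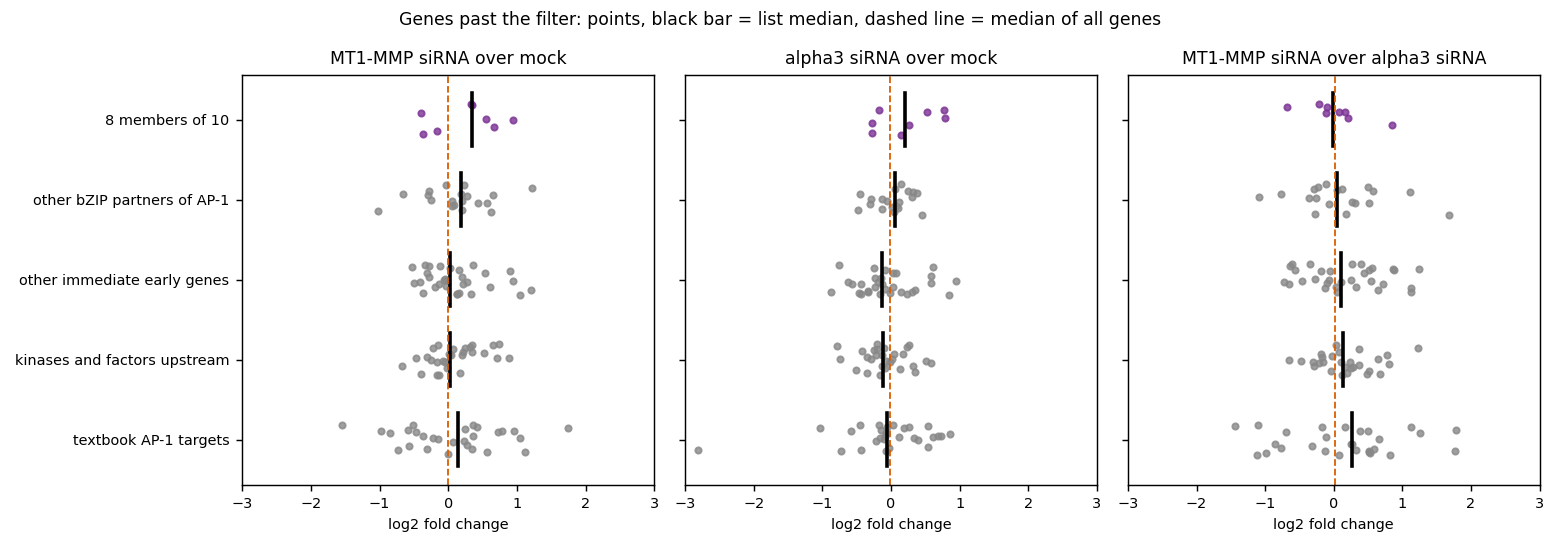
Log2 fold changes (points) of the 8 members past the filter and of 4 lists of other pathway genes, with the list median (black bar) and the median of all 8045 genes (dashed line), for the 3 comparisons. The members' median with MT1-MMP siRNA over mock (0.34) is the list median farthest from the dashed line (0.0024), and single genes of every list spread to both sides. The members are the shortest list shown, and members and lists were chosen with earlier results of these data known.

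Among 19 other zipper partners that passed the filter, 0 were called by limma in any comparison. With MT1-MMP siRNA against mock the median log2 fold change was 0.19, and 3 were higher and 2 lower at an unadjusted p under 0.05, where 6.76% of all genes were higher and 7.66% lower. NFIL3, a repressor, had 1240 and 845 with MT1-MMP siRNA, against 299 and 586 in mock cells (1.22, SE 0.35, limma adjusted p = 0.210). BACH1, which represses antioxidant genes, had 172 and 148 with MT1-MMP siRNA, against 81.5 and 104 in mock cells (0.62, adjusted p = 0.266). BATF3, which pairs with JUN, had 41.5 and 87.7 with MT1-MMP siRNA, against 147 and 170 in mock cells (-1.02, SE 0.31, adjusted p = 0.220), and CREB3, a zipper factor held in the membrane of the endoplasmic reticulum, had 325 and 355 with MT1-MMP siRNA, against 561 and 549 in mock cells (-0.66, adjusted p = 0.210). These 4 genes were also the ends of MT1-MMP siRNA against alpha3 siRNA, at 1.67, 1.11, -1.09 and -0.77 (adjusted p from 0.0534 to 0.0971). With alpha3 siRNA against mock the median was 0.065 and 0 of the 19 had an unadjusted p under 0.05, where 5.73% of all genes did.

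Of 31 other immediate early genes that passed, 0 were called by limma against mock with either siRNA. At an unadjusted p under 0.05, 5 were higher and 1 lower with MT1-MMP siRNA over mock, and 5 higher and 2 lower with alpha3 siRNA over mock. Of all genes 6.76% were higher and 7.66% lower in the first comparison, and 2.51% higher and 3.22% lower in the second. ZFP36L1, an RNA-binding protein that speeds mRNA decay, was called between the siRNAs, with 1072 and 1175 for MT1-MMP siRNA, against 545 and 451 for alpha3 siRNA (1.13, SE 0.21, limma adjusted p = 0.0475). Its call was lost on leaving out any 1 array, with values from 1.00 to 1.26 and adjusted p-values from 0.0563 to 0.255, and the mean of its probe sets gave 0.76 (adjusted p = 0.0915). It was also lost with a common 75th percentile, an offset of 1, no filter, no trend, only the groups compared, and a replicate block (limma adjusted p = 0.0518 with that block, and 0.0505 to 0.0736 over these 6). It was kept with quantile normalization, an offset of 100, a filter at the 60th percentile and every probe set (adjusted p from 0.0430 to 0.0486). DUSP1, a phosphatase that switches MAP kinases off, had 1896 and 1083 with MT1-MMP siRNA, against 640 and 539 with alpha3 siRNA (1.24, SE 0.29, adjusted p = 0.0656). At the other end were GADD45B, a stress protein of growth arrest, with 135 and 183 for MT1-MMP siRNA, against 269 and 290 with alpha3 siRNA (-0.72, adjusted p = 0.108), and SRF, the factor that binds the CArG box, with 119 and 79.9 for MT1-MMP siRNA, against 140 and 210 with alpha3 siRNA (-0.65, adjusted p = 0.200). Against mock the ends with MT1-MMP siRNA were CCN2 (1.21), the cyclooxygenase gene PTGS2 (1.04) and the zinc finger factor KLF6 (-0.53), with adjusted p-values from 0.260 to 0.308. With alpha3 siRNA they were CCN2 (0.95), CCN1 (0.85), the GTPase gene GEM (-0.88) and the survival gene MCL1 (-0.75), with adjusted p-values from 0.714 to 0.855. CCN2, a matricellular growth factor, had 1231 and 1302 in MT1-MMP siRNA cells, 608 and 1803 in alpha3 siRNA cells, and 485 and 579 in mock cells. The medians of the list were 0.019 with MT1-MMP siRNA over mock, -0.13 with alpha3 siRNA over mock and 0.10 between the siRNAs.

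Of 28 kinases and factors upstream of AP-1 that passed, 0 were called by limma. At an unadjusted p under 0.05 there were 1 with MT1-MMP siRNA over mock (higher), 1 with alpha3 siRNA over mock (lower), and 6 higher and 2 lower with MT1-MMP siRNA than with alpha3 siRNA, where 14.4%, 5.73% and 23.4% of all genes passed that rule. SPRY2, a feedback inhibitor of the RAS pathway, had 852 and 1250 in MT1-MMP siRNA cells, 474 and 373 in alpha3 siRNA cells, and 460 and 642 in mock cells. It was at 0.89 with MT1-MMP siRNA over mock (SE 0.26, limma adjusted p = 0.212) and at 1.23 over alpha3 siRNA (adjusted p = 0.0543). The phosphatase DUSP4 was at 0.81 and the kinase MAP2K4 at -0.47 between the siRNAs (limma adjusted p = 0.207 and 0.210). SRF, at -0.65, was lower than MAP2K4. It is also in the list of other immediate early genes, so the lists overlap. MAPK3, which encodes ERK1, was at -0.74 with alpha3 siRNA over mock (limma adjusted p = 0.855). It had 113 and 42.4 in alpha3 siRNA cells, against 146 and 138 in mock cells. The value thus leans on alpha3 siRNA replicate 2, whose signal was under the filter signal of 47.5. The medians of the list were 0.024 with MT1-MMP siRNA over mock, -0.11 with alpha3 siRNA over mock and 0.14 between the siRNAs.

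Of 28 textbook targets of AP-1 that passed, 0 were called by limma, and they lay on both sides of 0 in each comparison. At an unadjusted p under 0.05, 4 were higher and 3 lower with MT1-MMP siRNA over mock, 2 higher and 2 lower with alpha3 siRNA over mock, and 10 higher and 7 lower with MT1-MMP siRNA than with alpha3 siRNA. Of all genes 14.4%, 5.73% and 23.4% passed that rule in the same 3 comparisons. With MT1-MMP siRNA over mock FN1 was at 1.75 and PTGS2 at 1.04, while CXCL8 was at -1.55 and HMOX1 at -0.98 (limma adjusted p from 0.186 to 0.274). The mock arrays of FN1 lay far apart (1869 and 5529, SE of the fold change 0.55). PTGS2, which is also in the list of other immediate early genes, was dim in mock cells (25.1 and 52.3). It passed the filter only through its MT1-MMP siRNA arrays. HMOX1, the haem-degrading enzyme, had 186 and 196 with MT1-MMP siRNA, against 314 and 527 in mock cells. With alpha3 siRNA over mock the ends were IL11 (0.86), UPP1 (0.61), CXCL8 (-2.81) and ITGA5 (-0.58), with adjusted p-values from 0.136 to 0.855. IL11, a cytokine of the IL-6 family, had 53.3 and 81.7 in MT1-MMP siRNA cells, 301 and 184 in alpha3 siRNA cells, and 138 and 95.3 in mock cells, and MT1-MMP siRNA minus alpha3 siRNA was -1.44 (SE 0.29, adjusted p = 0.0534). UPP1, uridine phosphorylase, had 78.3 and 106 in MT1-MMP siRNA cells, 271 and 203 in alpha3 siRNA cells, and 180 and 113 in mock cells, and differed between the siRNAs by -1.11 (adjusted p = 0.0674). FN1 (1.78) and VEGFA (1.76) were the other ends between the siRNAs, with adjusted p-values of 0.111 and 0.0848. The medians of the list were 0.15 with MT1-MMP siRNA over mock, -0.064 with alpha3 siRNA over mock and 0.26 between the siRNAs.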

How the data were processed

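Total RNA of the 6 samples was measured on single-channel arrays, and the authors deposited 1 table of intensity per probe set, on a linear scale. How it was made is not stated in the labels. Trimmed means were alike on every array. A floor of 1 was applied, then log2(value + 32), which understates changes of dim probe sets. The 40th percentile filter left 11828 probe sets of 8045 genes, named through the supplied platform annotation. limma 3.58.1 (R 4.3.3) was run on the group means with an intensity trend (3 residual and 5.35 prior degrees of freedom). Replicates shared the same value on at most 78 probe sets. Data were simulated for MT1-MMP siRNA against mock (20 sets, 8045 genes, 200 of them changed per set). Of genes changed by 1 in log2, 58.3% were recovered, and of those changed by 2, 99.7%. Of the calls, 6.88% were false. An adjusted p depends on how many genes change, so these shares need not hold for the real arrays. There CXCL8, at -2.81 with alpha3 siRNA over mock, was not called (limma adjusted p = 0.136). The members and lists were chosen with earlier results of these data known. The text names all members, up to 2 genes on each side of each list at an unadjusted p under 0.05, and the 3 genes nearest to FOSL1, JUN and EGR1. SDs are of signals and SEs of log2 fold changes. The alternatives were other scalings, offsets, filters, probe set rules and fits, and leaving out each array. Figures were drawn with matplotlib 3.10.9.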

Additional observations from a re-analysis of the deposited data

Results flagged for a closer look

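The FOSL2 probe set 205409_at stood out because both MT1-MMP siRNA arrays lay below both mock arrays while both alpha3 siRNA arrays lay above them. Its ratio of mean signals over mock was 0.583 for MT1-MMP siRNA and 1.58 for alpha3 siRNA. The first rests on a narrow margin, 117 on MT1-MMP siRNA replicate 1 against 118 on mock replicate 1. The difference between the siRNAs, tested in limma over 11828 probe sets, was -1.20 (adjusted p = 0.0777), and the other probe sets of FOSL2 gave -0.68 and -0.07. Groups of 2 arrays are too small for a search for single outlying arrays.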

How the results depend on the processing

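Over 402 member values recomputed under the alternatives, 390 kept their direction and 0 passed the threshold, while 12 turned sign, 11 of them on leaving out 1 array, and 16 of the 24 member results never turned. The 390 include values that could not move, because the setting changed only the test or left out an array outside the comparison. That count is therefore no measure of stability. Averaging probe sets put EGR1 at -0.12 with alpha3 siRNA over mock. Leaving out 1 array moved FOSL2 with MT1-MMP siRNA over mock between -0.38 and 0.059. With alpha3 siRNA over mock it moved FOSL1 between -0.55 and 0.0041, JUN between -0.63 and 0.067, EGR1 between -0.014 and 0.30, and IER3 between -0.45 and 0.098. Between MT1-MMP siRNA and alpha3 siRNA it moved FOSL1 between -0.37 and 0.18, JUN between -0.46 and 0.24, and JUND between -0.20 and 0.54. Called genes for MT1-MMP siRNA over mock, 0 in the main setting, were 1 with quantile normalization, 3 with an offset of 1, 6 with 100, 2 with the mean of probe sets or every probe set, 7 with only the groups compared, and 0 to 8 without 1 array. For alpha3 siRNA over mock, 2 in the main setting, they were 1 with quantile normalization, an offset of 100, no filter, every probe set or only the groups compared, 0 with an offset of 1 or a filter at the 60th percentile, and 0 to 9 without 1 array. Between the siRNAs, 112 in the main setting, they were 69 with an offset of 1, 22 with no filter, 178 with a filter at the 60th percentile, 72 without the trend, and 0 to 83 without 1 array. The replicate number as a block gave 11, 4 and 114 called genes. Same-numbered arrays deviated with correlations over genes of -0.18 for MT1-MMP siRNA and mock, -0.18 for alpha3 siRNA and mock, and 0.13 between the siRNAs. The labels do not say whether same-numbered arrays were made together, and a shared batch was not tested. The cause of these shifts was not tested. Signal over background is unknown, which limits what the dim probe sets of FOS, FOSB and JUND show. The same limit holds for ATF3 and EGR1, which did not pass the filter at the 60th percentile and have no value under that setting.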
